A study of Mus musculus with 20 samples.

Results

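Erythroblasts were sorted from the bone marrow of 6 wild-type male 129S4 mice, 3 on an oxymetholone diet and 3 on placebo, and their messenger RNA was sequenced. They make up 6 of the 20 libraries of the series and were taken by their labels: wild-type, Ter119+, CD71-high and FSC-high (large) cells, with the diet given for each mouse. The submitters describe the gate as proerythroblasts and basophilic erythroblasts, and the cells were re-sorted for purity. Each library came from 1 mouse of 4 months. The diet held 300 mg of oxymetholone per kg, or placebo, and was given for 3 months from weaning. Libraries are named here oxymetholone 1 to 3 and placebo 1 to 3, and no label pairs an oxymetholone mouse with a placebo mouse. For one comparison they were set beside 6 libraries of wild-type KSL cells (cKit+ Sca1+ Lin-, stem and progenitor cells) on the same diets, each from a pool of 5 mice. Fancd2-/- erythroblasts were not analysed here.

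Oxymetholone is a synthetic androgen, of the class used against the marrow failure of Fanconi anemia. Ter119 marks the red cell lineage from the erythroblast onward and CD71 is the transferrin receptor, so the gate takes dividing precursors that load iron. In these cells GATA1 and KLF1 drive globin, heme synthesis and membrane skeleton genes, and erythropoietin signals through its receptor, JAK2 and STAT5. The comparison asks whether the drug changed expression in these cells.

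No gene was called between the diets. Of 9694 genes tested, 0 (0%) reached an adjusted p under 0.05 in edgeR's quasi-likelihood test with Benjamini-Hochberg adjustment, and the smallest adjusted p was 0.9996. An unadjusted p under 0.05 was given to 123 genes, and DESeq2 and limma also called 0. With the spread estimated from these 6 libraries, the 14 heme synthesis genes, the 28 membrane and skeleton genes and the 5 adult globin symbols each had a 95% interval that lay within 1.5-fold in either direction. Across all genes tested, 77.4% had such an interval, and among those at 50 CPM or more 97.9% had one. Of the heme, membrane and adult globin genes, 13, 27 and 5 were at that level, so their share is near that of genes of like level. With the spread shared with the KSL libraries, the intervals of the 5 adult globin symbols reached 2.21-fold (Hbb-b1) to 3.23-fold (Hba-a1), past the 1.5-fold limit. Those of the heme enzyme Alas2 (2.22-fold) and of the membrane genes Slc4a1 (2.96-fold), Ermap (1.87-fold), Add2 (1.64-fold) and Rhd (1.55-fold) passed it too. The widest intervals among well-measured genes came with differences between mice of the same diet, in interferon and MHC genes, heat shock genes and a group of long transcripts.

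The libraries held 17.2 M to 20.8 M counts on the transcripts kept, with 12282 to 12471 of 20377 gene symbols detected, and the lowest correlation between any 2 libraries was 0.990 (log2 CPM). Placebo 1 stood apart on the first principal component, which held 41.6% of the variance: its score was -20.2, against -7.22 to 11.1 in the other libraries. Levels are given as CPM, counts scaled to a common library total, or, where genes are compared with each other, as RPKM, the same values divided by exon length. Erythroblast markers were high and markers of earlier cells low, and the share of proerythroblasts in the gate was not measured. The 12 erythroblast marker genes tested were summed at 64891 to 74545 CPM. Of 15 markers of earlier erythroid and stem cells only 4 passed the filter on low counts. Kit, the receptor for stem cell factor, had 4 to 14 counts a library, Gata2 had 0 to 2 and Cd34, a stem cell antigen, had 0 to 3. Some genes known to be expressed widely had few counts in every library: Gapdh had 0 to 1 counts, against 11812 to 14834 for Actb, and 24 of 73 ribosomal protein symbols were under 1 CPM in all 6 libraries. Low values of genes with near-identical copies are therefore not read as low expression. The strand of counting is not given in the sources used here, so genes that overlap another, such as Ccna2 with Exosc9 and Fancl with Vrk2, may share reads.

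Globin transcripts led the erythroblast transcriptome. The major adult beta globin, listed under the symbol Beta-s (NM_001201391, chr7:110975037-110976442, mm9), was at 56410 ± 4390 RPKM (SD, n = 6) and alone held 4.38 ± 0.25% of the counts kept. Beta-s was at 48174, 41697 and 42630 CPM on oxymetholone and at 47771, 39611 and 43440 CPM on placebo. The groups overlapped fully, and oxymetholone 1 and placebo 1 were the highest in both. Hba-a1 and Hba-a2, the adult alpha globins, were at 27969 ± 2261 RPKM with identical values in every library. Their kept transcripts lie at the same locus (chr11:32183672-32184486 and chr11:32183675-32184493), so they are the same counts under 2 symbols. The other alpha locus (chr11:32196489-32197303) was counted apart, at 95083 to 113691 counts a library against 232670 to 279328. Hbb-b1 and Hbb-b2, at 7655 ± 387 and 7728 ± 387 RPKM, differed from each other by at most 1.08% in any library. They too lie at the same locus (chr7:110961042-110962437 and chr7:110961038-110962417), so they are not read as 2 genes each at that level. With each of 4 globin loci counted once, globins held 5.16 ± 0.29% of all deposited counts, and beta counts were 2.75 ± 0.08 times alpha counts. This ratio is of counts not divided by length, and the beta transcripts are longer (Beta-s 778 and Hbb-b2 703 bases, Hba-a1 457). How reads shared by near-identical copies were counted is not given either, so it is not read as a ratio of levels. The embryonic globins Hbb-y, Hba-x and Hbb-bh1 were near the detection limit, with 4 to 25 counts a library.

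The 250 bases before the annotated start of 3 of the highest erythroid genes are shown because they carry the letters that the erythroid factors GATA1 and KLF1 are known to bind. Sequences are from mm9, 5′ to 3′ on the strand of the gene. Capitals mark matches, on either strand, to the GATA motif, which is AGATAA with A or T allowed at its first base, and to the CACCC motif, which is CCNCACCC.
Beta-s (chr7:110976443-110976692, minus strand): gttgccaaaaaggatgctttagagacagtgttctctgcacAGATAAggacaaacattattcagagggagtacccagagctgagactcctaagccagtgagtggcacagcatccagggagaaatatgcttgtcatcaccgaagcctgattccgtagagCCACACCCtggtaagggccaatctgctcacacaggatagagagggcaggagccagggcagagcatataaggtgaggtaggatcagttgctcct
Slc4a1 (chr11:102226596-102226845, minus strand): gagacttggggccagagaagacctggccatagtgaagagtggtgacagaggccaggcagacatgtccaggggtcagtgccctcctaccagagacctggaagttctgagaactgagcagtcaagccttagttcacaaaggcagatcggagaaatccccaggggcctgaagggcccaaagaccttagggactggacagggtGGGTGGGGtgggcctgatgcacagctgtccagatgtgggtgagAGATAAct
Alas2 (chrX:146981710-146981959, plus strand): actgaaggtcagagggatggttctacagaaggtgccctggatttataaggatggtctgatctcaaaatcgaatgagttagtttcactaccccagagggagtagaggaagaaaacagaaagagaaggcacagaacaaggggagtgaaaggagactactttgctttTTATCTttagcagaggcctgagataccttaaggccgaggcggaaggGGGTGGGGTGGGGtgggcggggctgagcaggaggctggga

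The Beta-s window had 1 GATA match, 210 to 205 bases before the start, and 1 CACCC match, 93 to 86 bases before it. Slc4a1 had a CACCC match 51 to 44 bases before its start and a GATA match 8 to 3 bases before it. Alas2 had a GATA match 86 to 81 bases before its start and 2 CACCC matches that overlap each other. Among promoters of this length, 14.0% of 20216 held a GATA match and 16.8% a CACCC match. Among the 9683 promoters of tested genes the shares were 8.56% and 17.1%. Over the lists, a GATA match occurred in 5 of 8 globin, 3 of 14 heme synthesis and 11 of 29 membrane skeleton promoters, and a CACCC match in 4, 3 and 10 of them. The windows of Hba-a1 and Hba-a2 are nearly the same sequence, as are those of Hbb-b1 and Hbb-b2. The globin counts are therefore not of 8 separate promoters. These matches describe the letters only.

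After the globins came genes of oxygen chemistry, the red cell membrane, iron and heme. Gpx1, a glutathione peroxidase that removes hydrogen peroxide, was at 7542 ± 540 RPKM. It did not differ from Hbb-b1 and Hbb-b2 beyond their spread. Slc4a1, the band 3 anion exchanger of the red cell membrane, followed at 6109 ± 356 RPKM, above the surface protein Cd24a (5370 ± 274) and the carbonic anhydrase Car2 (5313 ± 361), which did not differ from each other beyond their spread. Fth1, the ferritin heavy chain, was at 3636 ± 92 RPKM, and the water channel Aqp1 at 3411 ± 176 RPKM. Alas2, the first and rate-limiting enzyme of erythroid heme synthesis, was at 3111 ± 257 RPKM, and its spread overlapped that of Aqp1. Slc25a37, the mitochondrial iron importer mitoferrin, was at 2112 ± 109 RPKM. Also among the 20 highest were the protease Ctse, the erythroid nuclear protein Hemgn, the RNA-binding Rbm38, the peroxiredoxin Prdx2, the heme enzyme Alad and the tubulin Tubb5.

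**Figure D1:**
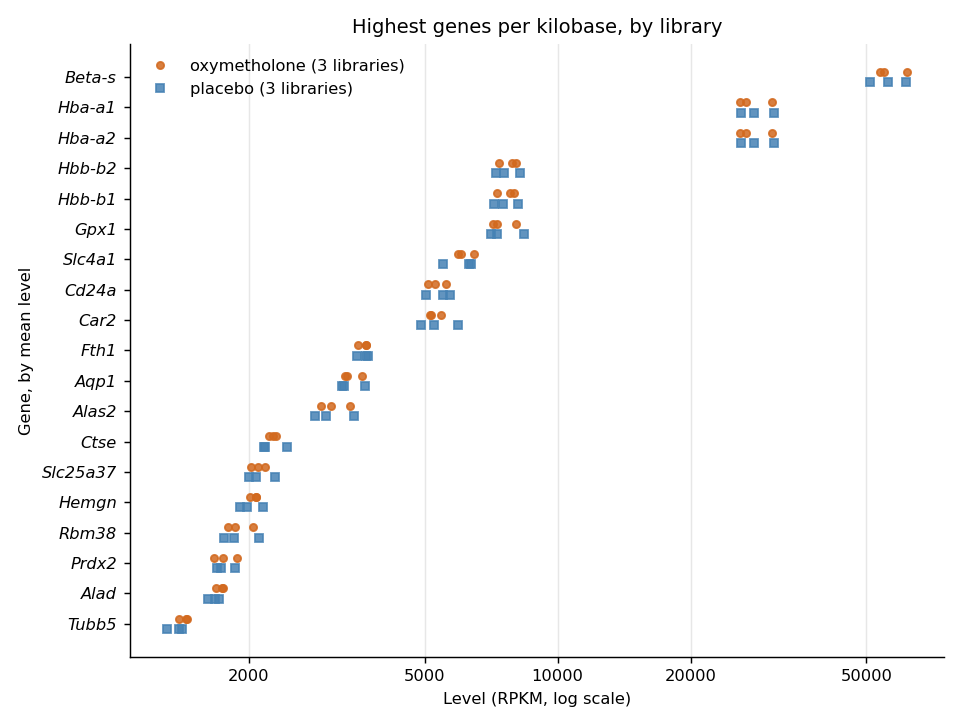
Level of 19 of the 20 highest genes per kilobase (RPKM, log scale) in each of the 3 oxymetholone (circles) and 3 placebo (squares) libraries. The groups overlap for every gene shown, and the ranking runs from Beta-s at a mean of 56410 RPKM to Tubb5 at 1398 RPKM.

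The transcriptome was concentrated and shared. The 20 genes with the most counts held 19.7 ± 0.51% of the counts kept, 100 genes held 33.7 ± 0.69% and 1000 genes 70.3 ± 0.59%. Of 9336 symbols at 1 CPM or more in any library, 8548 were at that level in all 6. At 100 CPM or more, 1742 of 2001 were shared by all 6. In these shares the paired globin symbols (Hba-a1 with Hba-a2, Hbb-b1 with Hbb-b2) each enter, although each pair lies at the same locus. Summing all transcripts of a symbol in place of the largest lowered the share of the top 20 to 17.5%.

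Heme synthesis was expressed along its whole length. After Alas2, the mitochondrial last enzyme Fech was at 1307 RPKM, Cpox at 786, Urod at 772 and Ppox at 174, while Alas1, the form of other tissues, was at 2.33 RPKM. Among iron genes, Glrx5, which serves iron-sulfur cluster assembly, was at 1089 RPKM and the transferrin receptor Tfrc at 865 RPKM. The ferrireductase Steap3 was at 238 RPKM, and the iron exporter Slc40a1 at 54.8 RPKM. Of the skeleton, alpha and beta spectrin (Spna1 and Spnb1) were at 514 and 643 RPKM, ankyrin (Ank1) at 426 and protein 4.1 (Epb4.1) at 475 RPKM. The Rh proteins Rhd and Rhag were at 1384 and 442 RPKM.

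Among erythroid transcription factors, Klf1 was the highest per kilobase at 1012 RPKM, followed by Tal1 (725), the cell cycle factor E2f2 (641), Lmo2 (557), Nfe2 (551) and the GATA1 partner Zfpm1 (549). Gata1 itself was at 381 RPKM. Myb and Sfpi1 (PU.1), factors of earlier cells, were at 1.58 and 1.49 RPKM. The erythropoietin receptor Epor was at 333 RPKM, with 10987 to 13516 counts a library. Jak2 was at 56.1 RPKM and Ccnd3, the cyclin that links Epor signalling to division, at 832 RPKM. The feedback inhibitors of this pathway were low: Cish was at 0.45 to 2.10 CPM and Socs3 at 0.14 to 0.84 CPM.

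The comparison of diets gave 123 genes with an unadjusted p under 0.05 (1.27% of those tested), 50 higher and 73 lower on oxymetholone. The threshold alone gives 484.7 when no gene differs. The count of calls was also 0 in DESeq2 (40 genes with unadjusted p under 0.05), in limma voom (265) and in limma on the authors' scaled matrix (106). It stayed 0 when any 1 library was left out, with 101 to 470 genes under 0.05; the most were seen without placebo 3 (470) and without oxymetholone 1 (250). The median log2 change was 0.001, and 50.4% of genes were above 0. The 3 oxymetholone libraries did not overlap the 3 placebo libraries for 569 genes (5.87%). An estimate of 2-fold or more was given for 23 genes, of which 22 had a mean under 10 CPM. The other was Hsph1, a heat shock protein that was high in placebo 1 alone.

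Genes at 1 CPM or more were ordered by p, and the first 10 of each direction are given as a ranking only, since none was called and each had an adjusted p of 0.9996. Osbpl7, a lipid-binding protein (chr11:96912134-96930218), was first among the lower genes, at 0.50, 1.29 and 1.07 CPM on oxymetholone and 2.03, 1.95 and 2.32 CPM on placebo. Its groups did not overlap, and its log2 change was -1.13 ± 0.31 (SE). Crtc1, a coactivator of CREB, was at 7.62, 8.40 and 8.32 CPM against 10.9, 10.6 and 10.2 CPM, and its log2 change was -0.38 ± 0.11. Zbtb7b, a zinc finger repressor, was at 4.06, 4.06 and 4.36 CPM on oxymetholone and 5.91, 5.89 and 5.54 CPM on placebo. Sepw1, a small selenoprotein, was at 21.4, 19.2 and 21.3 CPM against 25.8, 24.6 and 24.2 CPM. The others were Igfn1, Ric8b, Clca1, the zinc and manganese transporter Slc39a8, Xlr and Impg2, with log2 changes from -0.95 (Xlr) to -0.32 (Slc39a8).

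Fam101b (chr11:75832697-75841284) was first among the higher genes, at 2.004, 2.20 and 1.83 CPM on oxymetholone and 1.19, 0.92 and 1.21 CPM on placebo, a log2 change of 0.86 ± 0.24. Rnf157, a ubiquitin ligase, was at 3.31, 2.67 and 2.84 CPM against 2.21, 1.27 and 1.76 CPM. Plag1, a zinc finger growth regulator, was at 3.96, 4.54 and 4.26 CPM on oxymetholone and 3.16, 3.02 and 3.12 CPM on placebo. Dhrs3, a retinaldehyde reductase, had the highest level of the 10, at 24.9, 22.7 and 22.7 CPM against 17.8, 20.01 and 21.0 CPM. Groups did not overlap for any of these 4. The others were Zfp64, A830010M20Rik, Fam46a, Gm5617, the complement inhibitor Cd59a and Mfsd9, and Mfsd9 was the only one of the 20 whose groups overlapped. All 20 had a mean under 50 CPM. They were chosen for small p, so the separation of their groups is a description.

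**Figure D2:**
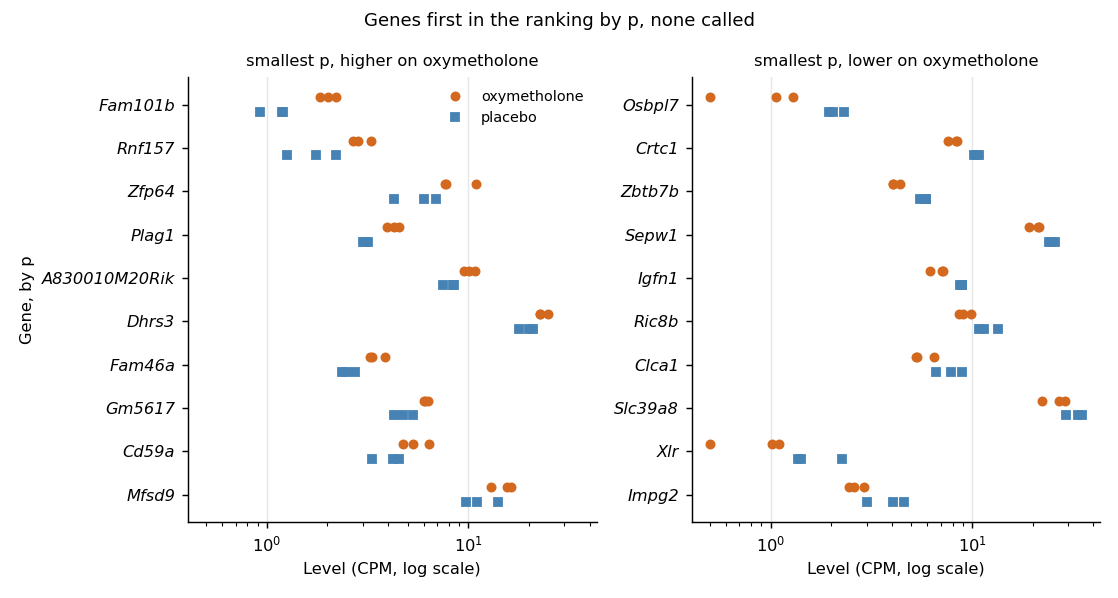
Level (CPM, log scale) of the 10 genes first by p among the higher and among the lower, in 3 oxymetholone (circles) and 3 placebo (squares) libraries. Groups are separate for all but Mfsd9, levels lie under 50 CPM and no gene was called.

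At 50 CPM or more, where the measurement is most precise, 8 of 3125 genes had an unadjusted p under 0.05. Those named here were chosen after their values were seen. Limd1 was at 50.8, 49.1 and 48.5 CPM on oxymetholone and 55.9, 57.7 and 53.3 CPM on placebo, a log2 change of -0.17 ± 0.06. Trrap, a scaffold of histone acetyltransferase complexes, was at 89.7, 91.0 and 89.2 CPM against 95.9, 98.6 and 101 CPM, a log2 change of -0.13 ± 0.05. Tsc2, the brake on mTOR signalling, had a log2 change of -0.14 ± 0.06. Heatr7b1 and Ppp2r5b were also lower, and Tuba1c and Ift57 were higher, all with estimates of 0.20 or less in size on the log2 scale. None was called.

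How large a change the data leave room for depended on the level of the gene. For each gene the 95% interval of its log2 change was taken from the fit, and its outer end, as a fold in either direction, is called the bound. Such intervals hold for 1 gene at a time, so some of 9694 will miss. The bound lay within 1.2-fold for 4266 genes (44.0%), within 1.5-fold for 7505 (77.4%) and within 2-fold for 8915 (92.0%). Under 1 CPM none of 794 genes was within 1.5-fold. From 1 to 10 CPM 56.0% of 2822 genes were, from 10 to 50 CPM 97.0% of 2953, and at 50 CPM or more 97.9% of 3125. In the highest class the median bound was 1.13-fold, and 89.2% of genes were within 1.2-fold. With the spread estimated over all 12 wild-type libraries of both cell types, 18.0% of the 12863 genes of that fit were within 1.2-fold and 58.0% within 1.5-fold, still with 0 calls. That fit also holds genes that only KSL cells express.

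**Figure D3:**
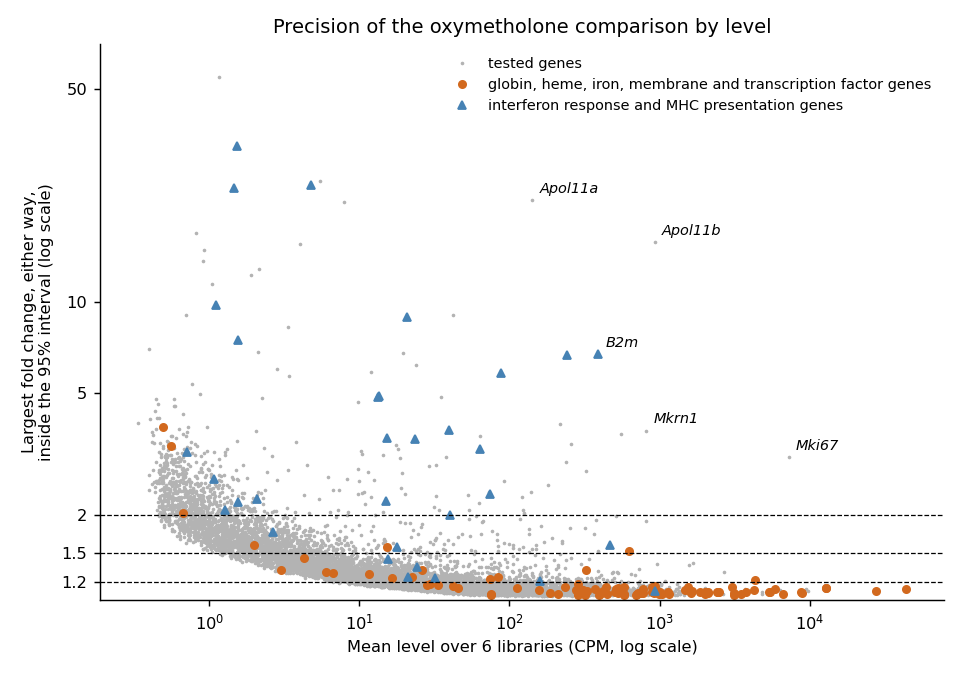
Largest fold change, in either direction, inside the 95% interval of the oxymetholone comparison against the mean level (CPM), both on log scales, for 9694 tested genes. Dashed lines mark 1.2-fold, 1.5-fold and 2-fold, with 97.9% of genes at 50 CPM or more under the 1.5-fold line; Apol11a, Apol11b, Mki67, Mkrn1 and most interferon and MHC genes (triangles) lie above it.

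For globins the bound was small at the adult loci. Beta-s had a log2 change of 0.02 ± 0.08 (SE) and an interval from 0.90-fold to 1.14-fold, and Hba-a1 one of -0.03 ± 0.08 and 0.87-fold to 1.11-fold. All 5 adult globin symbols were within 1.2-fold, against 44.0% of all genes and 89.2% of those at 50 CPM or more. The 5 are not separate measurements, since Hba-a1 and Hba-a2 are the same counts and Hbb-b1 and Hbb-b2 lie at the same locus. Their bounds rest on the spread among erythroblasts: with the spread shared with KSL libraries, the bound of Beta-s was 2.53-fold and that of Hba-a1 3.23-fold. The embryonic globins could not be bounded closely. Hbb-bh1 was at 0.30, 0.29 and 0.36 CPM on oxymetholone and 0.54, 0.73 and 0.75 CPM on placebo, with groups that did not overlap and an unadjusted p of 0.013, but these are 6 to 15 counts a library and the adjusted p was 0.9996.

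Heme synthesis genes showed no call, and all 14 tested were within 1.5-fold and 12 within 1.2-fold. Alas2 was at 6429, 5816 and 5524 CPM on oxymetholone and 6531, 5352 and 5668 CPM on placebo, a log2 change of 0.02 ± 0.08 with an interval from 0.89-fold to 1.15-fold. Fech was at 3897, 3876 and 3728 CPM against 3785, 3606 and 3860 CPM. Its bound was 1.11-fold. The list median was 0.009, and 8 genes were above 0 and 6 below. The widest bound was that of the low Alas1, 1.29-fold. For Alas2 the bound was 2.22-fold when the spread was shared with KSL libraries.

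The 28 membrane and skeleton genes tested were all within 1.5-fold, and all but Spna1 within 1.2-fold. Slc4a1 was at 29413, 27110 and 27416 CPM on oxymetholone and 28626, 25015 and 29011 CPM on placebo, a log2 change of 0.02 ± 0.07 with a bound of 1.13-fold (2.96-fold with the shared spread). The diets overlapped for this gene. The list median was 0.005, with 16 genes above 0 and 12 below, and the largest estimate in size was that of the mechanosensitive channel Fam38a (Piezo1), -0.09 ± 0.06.

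Of 21 iron genes, 19 were within 1.5-fold and 0 were called. Tfrc, which makes the CD71 used for the sort, was at 4591, 4182 and 4044 CPM on oxymetholone and 4500, 4036 and 4023 CPM on placebo, with a bound of 1.13-fold. Slc25a37 had a bound of 1.12-fold and Fth1 one of 1.09-fold. The 2 genes outside were low: Ncoa4, which delivers ferritin for breakdown, had a bound of 1.59-fold at 1.37 to 2.39 CPM. Fam132b, the erythropoietin-induced hormone erythroferrone, was at 22.1, 14.1 and 11.98 CPM on oxymetholone and 14.7, 14.5 and 13.9 CPM on placebo. Only oxymetholone 1 was high, and the log2 change was 0.16 ± 0.21.

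Among 26 erythroid transcription factors, 25 were within 1.5-fold and none was called. Gata1 was at 774, 702 and 690 CPM on oxymetholone and 766, 712 and 699 CPM on placebo, with a bound of 1.11-fold. Klf1 was at 1716, 1457 and 1456 CPM against 1722, 1565 and 1402 CPM, with a bound of 1.16-fold (1.91-fold with the shared spread). Klf3, a repressor of the KLF1 family, was the exception at 1.52-fold. It was at 498, 726 and 704 CPM against 526, 566 and 760 CPM, low in oxymetholone 1, placebo 1 and placebo 2. The list median was -0.02, with 9 genes above 0 and 17 below.

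In erythropoietin and Kit signalling 24 genes were tested, 0 were called and 15 were within 1.5-fold. Epor was at 677, 556 and 591 CPM on oxymetholone and 656, 595 and 584 CPM on placebo, a log2 change of -0.01 ± 0.08 with a bound of 1.13-fold. Bcl2l1, the BCL-XL survival protein that acts downstream of Epor, was at 394, 373 and 398 CPM against 440, 310 and 397 CPM, with a bound of 1.21-fold. Kit was at 0.70, 0.53 and 0.71 CPM against 0.30, 0.19 and 0.30 CPM. Its groups did not overlap and its log2 change was 1.27 ± 0.43, with an unadjusted p of 0.0085 and an adjusted p of 0.9996. It rests on 54 counts in all 6 libraries together.

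**Figure D4:**
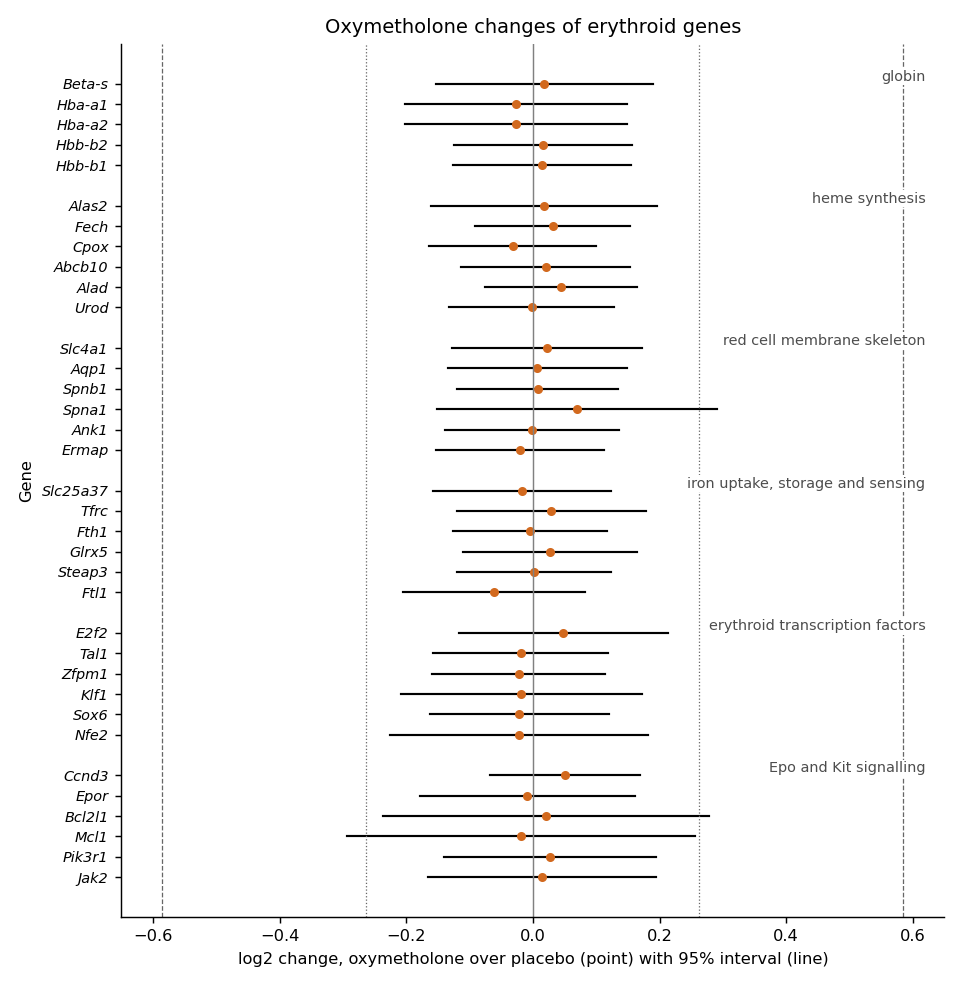
The log2 change (point) on oxymetholone over placebo with its 95% interval (line) for members of 6 lists with high levels, 3 libraries a group. Dotted lines mark 1.2-fold and dashed lines 1.5-fold; every interval shown crosses 0 and stays within 1.5-fold, and Spna1, Bcl2l1 and Mcl1 pass 1.2-fold.

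Genes tied to the drug and the disease were examined by list. Esr1, an estrogen receptor gene, had 3 counts in all 6 libraries together, the progesterone receptor gene Pgr had 0 and Spp1, the gene of the osteopontin named in the title of the series, had 4, so no change in these could be measured. Nr3c1, the glucocorticoid receptor, was at 84.4, 89.0 and 94.7 CPM on oxymetholone and 95.1, 86.8 and 88.1 CPM on placebo, with a bound of 1.11-fold. Of 20 steroid receptor and target genes tested, 0 were called, and 9 were within 1.5-fold. Fkbp5, a target of the glucocorticoid receptor, was at 22.7, 19.6 and 22.7 CPM against 20.3, 22.1 and 19.3 CPM, with a bound of 1.22-fold. Tsc22d3, a glucocorticoid target, had the smallest p of the list (0.060) at 5.51, 5.25 and 4.82 CPM against 9.07, 7.35 and 4.73 CPM.

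Fancd2, the gene deleted in other animals of the series and intact here, was at 105, 108 and 101 CPM on oxymetholone and 94.8, 103 and 99.6 CPM on placebo, with a bound of 1.15-fold. Of the 22 Fanconi pathway genes 21 were within 1.5-fold and 0 were called. The exception was Brca2, at 1.83-fold. Tert, the telomerase protein gene, had 0 counts, so telomerase could be followed only through the other members of its list, 12 of 14 of which were within 1.5-fold. The 30 DNA replication genes were all within 1.5-fold, with a median of 0.02.

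The 25 mitosis genes tested were all above 0 and none was called. Their median log2 change was 0.07, against 0.001 over all genes, of which 50.4% were above 0. Cdk1, the mitotic kinase, was at 764, 739 and 690 CPM on oxymetholone and 702, 702 and 685 CPM on placebo, with a log2 change of 0.07. Cenpa, the centromere histone, was at 373, 386 and 362 CPM against 351, 348 and 355 CPM. The list holds genes that share cells and libraries, and 22 to 25 of them were above 0 when any 1 library was left out, with medians from 0.04 to 0.09. Of 13 cell cycle inhibitors 12 were above 0 with a median of 0.07, 9 to 12 when 1 library was left out, and 0 were called. Over the 28 pathway lists the medians ran from -0.28 (heat shock) to 0.07.

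The widest bounds among well-measured genes came from differences between mice of 1 diet. Of the 3125 genes at 50 CPM or more, 25 had a bound over 2-fold. Apol11b, an apolipoprotein L family gene (chr15), was at 432, 322 and 1412 CPM on oxymetholone and 2738, 361 and 309 CPM on placebo. It was high in placebo 1 and oxymetholone 3 and low in the other 4, and its bound was 15.7-fold. B2m, the light chain of MHC class I, was at 281, 201 and 614 CPM against 902, 171 and 170 CPM, with the same 2 libraries highest. H2-D1, a class I heavy chain, was at 183, 116 and 385 CPM on oxymetholone and 552, 105 and 107 CPM on placebo. H2-K1 and the interferon-induced GTPase Igtp had the same order of libraries at the top. Isg15, an interferon-induced ubiquitin-like protein, was high in placebo 1 alone, at 60.02, 56.3 and 51.2 CPM against 125, 45.3 and 45.7 CPM.

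The 250 bases before the start of 3 of these genes are shown because the members moved together and interferon-regulated factors are known to bind repeats of GAAA. Capitals mark matches, on either strand, to the interferon motif, GAAA followed after any 2 bases by GAAA.
B2m (chr2:121973173-121973422, plus strand): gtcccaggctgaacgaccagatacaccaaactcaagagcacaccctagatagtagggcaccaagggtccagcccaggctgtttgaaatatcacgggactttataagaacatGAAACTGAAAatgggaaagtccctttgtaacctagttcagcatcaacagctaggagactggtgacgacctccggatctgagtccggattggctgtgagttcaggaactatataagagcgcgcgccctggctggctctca
Apol11b (chr15:77473717-77473966, minus strand): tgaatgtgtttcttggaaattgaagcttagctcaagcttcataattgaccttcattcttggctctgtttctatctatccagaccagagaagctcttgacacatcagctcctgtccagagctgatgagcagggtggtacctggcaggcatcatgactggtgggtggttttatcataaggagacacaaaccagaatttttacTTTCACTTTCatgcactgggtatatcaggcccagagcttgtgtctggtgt
Igtp (chr11:58012808-58013057, plus strand): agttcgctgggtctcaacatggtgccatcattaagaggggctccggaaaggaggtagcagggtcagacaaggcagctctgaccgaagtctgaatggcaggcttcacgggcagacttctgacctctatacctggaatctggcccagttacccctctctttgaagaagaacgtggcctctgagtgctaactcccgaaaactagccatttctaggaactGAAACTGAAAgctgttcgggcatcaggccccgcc

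The match lay 139 to 130 bases before the start in B2m, 50 to 41 bases in Apol11b and 34 to 25 bases in Igtp. It was found in 3.05% of all promoters of this length, in 10 of 28 promoters of the interferon list and in 2 of 14 of the MHC list. The window of H2-K1 held no match to these letters. The matches describe letters and were chosen for display with the values of these genes known.

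Over lists, placebo 1 was the highest library for 14 of 14 MHC presentation genes and 19 of 20 interferon genes above the level filter. The median deviation of the MHC genes from their own means was 1.48 log2 units in placebo 1, 0.54 in oxymetholone 3 and -0.69 in oxymetholone 2, placebo 2 and placebo 3. In the diet comparison 17 of 21 interferon genes were below 0, with a median of -0.17 and 0 called. Without placebo 1 the direction turned: 20 of 21 were above 0, with a median of 0.25, 7 with an unadjusted p under 0.05 and again 0 called, while 50.2% of all genes were above 0. The MHC list, added after the data were seen, went from 14 of 14 below 0 (median -0.21) to 13 of 14 above 0 (median 0.74). Dendritic cell markers moved with these genes: 6 of 11 were tested, all 6 highest in placebo 1, and the list summed to 44.3 to 85.4 CPM on oxymetholone and 46.5 to 148 CPM on placebo. Of those 6, Cd74, H2-Aa and H2-Ab1 are themselves MHC class II genes, while the defining Flt3, Itgax and Siglech were at 0 to 0.66 CPM. Monocyte and macrophage markers were also highest in placebo 1 for 9 of 14 genes above the level filter, with a median deviation of 0.36 log2 units there and a sum of 149 CPM against 86.8 to 125 CPM in the other 5 libraries. Their part in the result was not tested.

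Placebo 1 was the highest library for 12 of 16 heat shock genes. It was also the highest for 10 of 25 antioxidant genes and 11 of 21 autophagy and mitochondrial clearance genes, so being highest there was not particular to heat shock genes. For DNA replication the highest median was that of oxymetholone 1, with 11 of 30 genes highest there. Hsph1 was at 31.9, 25.6 and 21.8 CPM on oxymetholone and 119, 30.5 and 25.2 CPM on placebo. Hsp90ab1, a cytosolic chaperone, was at 255, 287 and 266 CPM against 583, 275 and 273 CPM. Hspa1b, the inducible HSP70, had 157 counts in placebo 1 and 0 to 1 in the other 5 libraries. The heat shock list's median deviation in placebo 1 was 0.56 log2 units, and its median log2 change went from -0.28 to 0.00 when that library was left out, with 0 called in either case. The early response phosphatase Dusp1 was also highest there, at 496 CPM against 186 to 258 CPM.

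A group of long transcripts divided the libraries another way. Mki67, the proliferation antigen, was at 4891, 9401 and 9510 CPM on oxymetholone and 4395, 4832 and 10370 CPM on placebo. Cenpf, a kinetochore protein, was at 365, 764 and 735 CPM against 304, 336 and 816 CPM. Both were low in oxymetholone 1, placebo 1 and placebo 2 and high in the other 3, and Cenpe, Tpr, Bod1l, Atrx and Brca2 showed the same division. The low libraries carry the title numbers 6, 7 and 8 and the high ones 9, 10 and 11; what the numbers stand for is not stated, and the division was noticed in the data. Transcript length moved with it. The median log2 difference of the high over the low libraries was -0.06 for 396 transcripts under 1000 bases and 0.07 for 253 over 8000 bases. Its part in the result was not tested. The diets are divided 1 and 2 against 2 and 1 over these libraries, and with the division as a covariate the diet comparison again gave 0 calls (197 genes with unadjusted p under 0.05).

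**Figure D5:**
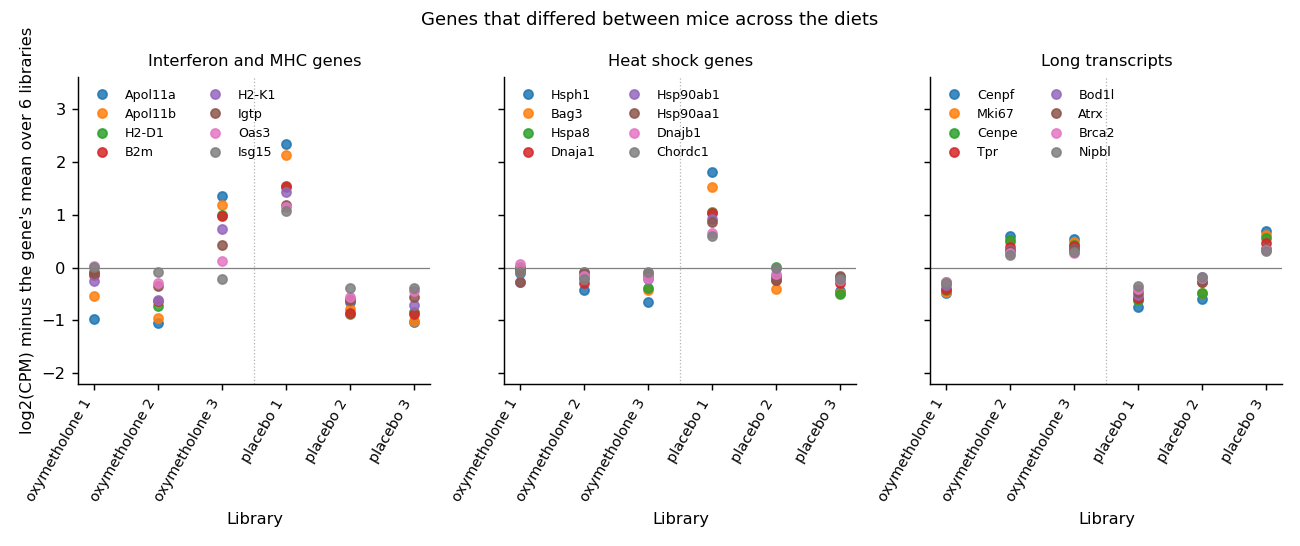
Deviation of log2(CPM) from the gene's mean over 6 libraries, for 8 interferon and MHC genes, 8 heat shock genes and 8 long transcripts chosen for their spread. The first group is high in placebo 1, with most also high in oxymetholone 3, the second in placebo 1 alone, and the third in oxymetholone 2, oxymetholone 3 and placebo 3.

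Single genes varied on their own. Mkrn1, a RING finger ubiquitin ligase, was at 228 CPM in oxymetholone 1 and at 655 to 1136 CPM in the other 5 libraries. Glo1, the methylglyoxal-detoxifying glyoxalase (chr17), took 2 levels, at 67.6, 35.3 and 63.7 CPM on oxymetholone and 40.9, 70.7 and 38.1 CPM on placebo, with each diet at both levels. At the other end, 2331 of the 3125 genes at 50 CPM or more (74.6%) had an SD under 0.1 log2 units over the 6 mice, and the median SD was 0.07. Eny2, a transcription and export factor, was at 55.2, 55.0 and 54.5 CPM on oxymetholone and 55.1, 54.6 and 54.7 CPM on placebo. Ccna2, the S and G2 phase cyclin, was among the 10 steadiest genes at 1849, 1813 and 1825 CPM against 1807, 1799 and 1813 CPM. Both overlap a neighbour, Nudcd1 and Exosc9.

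Markers of other marrow cells were low, and their summed levels overlapped between the diets in all 6 libraries. Neutrophil markers summed to 222 to 295 CPM on oxymetholone and 168 to 270 CPM on placebo, with 12 of 15 tested above 0, a median log2 change of 0.21 and 0 called. Without placebo 1 the sums separated, at 222 to 295 CPM against 168 and 191 CPM, and 15 of 15 were above 0 with a median of 0.40, 6 at an unadjusted p under 0.05 and 0 called. Without oxymetholone 1 the median was 0.08 and 9 of 15 were above 0, and without placebo 2 it was 0.10 and 10 of 15. Ngp, a granule protein, was at 83.6, 61.0 and 64.1 CPM against 75.6, 48.7 and 53.1 CPM. Elane, neutrophil elastase, was at 5.31, 2.96 and 2.33 CPM against 1.91, 2.68 and 1.91 CPM, with an unadjusted p of 0.044. Monocyte and macrophage markers summed to 86.8 to 125 CPM on oxymetholone and 102 to 149 CPM on placebo, and B cell markers to 2.54 to 3.76 CPM over all 6 libraries. T and NK cell markers summed to 38.0 to 49.3 CPM and megakaryocyte and platelet markers to 386 to 440 CPM. Plasma cell markers summed to 10.5 to 24.9 CPM, eosinophil markers to 1.91 to 9.93 CPM, stroma and endothelium markers to 1.90 to 3.15 CPM and mast cell markers to 0.55 to 1.002 CPM. No member of the 13 marker lists was called. In bulk libraries fewer cells of a type and less RNA per cell cannot be told apart.

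Against wild-type KSL cells, erythroblasts differed in most genes. In a fit of all 12 wild-type libraries, 4908 of 12863 genes were higher (38.2%) and 7174 lower (55.8%) in erythroblasts at an adjusted p under 0.05 (edgeR), and 3493 (27.2%) were higher and 6019 (46.8%) lower by 2-fold or more. The median of all genes was -0.71 on the log2 scale, so directions here are relative to a shifted centre. Levels in this fit are on its own normalisation scale and are not those given above. Tspan33, a tetraspanin, was at 3549 ± 174 CPM (SD, n = 6) in erythroblasts and 11.1 ± 1.4 CPM in KSL cells. Abcb10, a mitochondrial transporter that serves heme synthesis, was higher by 6.98 log2 units. Also first by p among the higher genes were Gfap, Cdr2, Mgll, Mpp2, Trak2 and Stom.

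Lowest in erythroblasts relative to KSL cells by p were Eltd1, Tagln2, Cd34, Kit, Flt3, Shisa5, Tes, Muc13, Aff3 and Cxxc5. Cd34 was at 0.084 ± 0.090 against 807 ± 45 CPM and Kit at 0.74 ± 0.36 against 417 ± 38 CPM. By list, all 25 mitosis genes and all 30 DNA replication genes were higher in erythroblasts, and 25 and 27 of these were so by 2-fold or more. All 15 progenitor markers, 22 of 24 TGF-beta genes and 24 of 29 steroid receptor and target genes were lower, against 55.8% of all genes. KSL cells were sorted as cKit+ Sca1+, so markers used for that sort, such as Kit, were bound to be lower in erythroblasts. Erythroblast libraries came from single mice and KSL libraries from pools, so cell type and pooling cannot be told apart.

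The drug effect was compared between the cell types in the same fit, and it differed for 2 of 12863 genes (0.0155%), with 315 at an unadjusted p under 0.05. The design pairs KSL libraries of the diets, with no counterpart in erythroblasts, and the fit held no term for the pairs. Tmem56, a membrane protein gene, was at 327, 360 and 345 CPM on oxymetholone and 318, 344 and 419 CPM on placebo in erythroblasts. In KSL cells it was at 0.15, 0.13 and 0.12 CPM against 0.47, 0.63 and 0.54 CPM. The difference of the log2 changes was 2.02 ± 0.27 (SE), with an adjusted p of 0.0061 (edgeR). Gfap was at 262, 277 and 247 CPM against 252, 270 and 252 CPM in erythroblasts and at 0.25, 0.23 and 0.21 CPM against 0.61, 0.53 and 0.43 CPM in KSL cells. Its difference was 1.26 ± 0.20, with an adjusted p of 0.035. In erythroblasts the log2 changes were -0.07 ± 0.10 for Tmem56 and 0.02 ± 0.08 for Gfap, and the diets separated only in KSL cells, at levels under 1 CPM. Erythroblast transcripts at trace levels in the KSL libraries were summed over 61 genes, both of these among them. These were at 100 CPM or more in erythroblasts and under 1 CPM on average in KSL cells. The sums overlapped between the diets, at 16.0, 24.5 and 15.3 CPM on oxymetholone and 28.6, 21.3 and 31.9 CPM on placebo. Single erythroid genes differed in this. In KSL cells Beta-s separated by diet, at 1.74, 1.57 and 2.39 CPM on oxymetholone against 5.44, 3.06 and 22.5 CPM on placebo. Slc4a1 also separated, at 0.057, 0.20 and 0.12 CPM against 0.26, 0.23 and 4.41 CPM, while Alas2 overlapped. The part of such transcripts in the result was not tested. Without KSL oxymetholone 2 or without KSL placebo 2 neither call remained.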

How the data were processed

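RNA of sorted erythroblasts was made into TruSeq libraries and sequenced as 51-base reads, per the labels. The authors aligned reads with Bowtie to mm9 and deposited a table of counts per RefSeq transcript (26005 in 20 libraries). How multi-mapping reads and strand were handled, and which tool versions ran, is not given in the sources used here. A second deposited matrix holds a score: counts that the authors scaled to a common total per library and rounded, as the values show.

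For each of 20377 symbols the transcript with the largest total over 20 libraries was kept. Genes passing filterByExpr were tested in R 4.3.3 with edgeR 4.0.16 (TMM, robust quasi-likelihood, 6 libraries, group means, Benjamini-Hochberg). Intervals are the estimate plus and minus its SE times the t quantile of the fit. The difference between cell types was tested over 12 wild-type libraries by group means, without a term for the KSL pairs. Scripts were tested on simulated data. RPKM used CPM and exon lengths of mm9 annotation, and promoter windows used the mm9 genome at the deposited transcript starts. Alternatives were DESeq2 1.42.0, limma 3.58.1 (voom, and log2 of the score plus 1), other filters, size factors and row choices, a shared spread and each library left out. The title number as a covariate was added after seeing the data.

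Genes named were the calls, or with under 5 calls the 10 smallest p in each direction at 1 CPM or more, the 20 highest per kilobase, the 10 most and least variable, and the highest members of 28 pathway and 13 marker lists. A few members of these sets are not reported here. Members and lists were chosen with earlier results of these data known. Replicates are separate mice. Depth was 17.2 M to 20.8 M kept counts a library, and the common coefficient of biological variation was 9.11%.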

Additional observations from a re-analysis of the deposited data

Results flagged for a closer look

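The oxymetholone effects in erythroblasts and KSL cells differed by the test of the difference itself for Tmem56 and Gfap. The difference of log2 changes, erythroblasts minus KSL cells, was 2.02 for Tmem56 and 1.26 for Gfap (edgeR over 12 wild-type libraries, adjusted p 0.0061 and 0.035). Both genes are abundant in erythroblasts, at 352 ± 36 and 260 ± 12 CPM (SD, n = 6), and lie under 1 CPM in KSL cells. With 1 library left out at a time the difference ranged from 1.80 to 2.15 for Tmem56 and from 1.19 to 1.31 for Gfap. Neither call remained without KSL oxymetholone 2 or without KSL placebo 2.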

How the results depend on the processing

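The count of genes called between the diets was 0 in the chosen test and in each of the 16 alternatives run. The share of genes with a bound within 1.5-fold was 77.4% and ran from 53.9% without a filter on low counts to 96.4% with at least 5 CPM in 3 libraries. It was 58.0% with the spread shared over 12 libraries and 71.6% to 75.0% with 1 library left out. Klf3 came within 1.5-fold under 5 alternatives, 1.17-fold with the title number as a covariate, and was at 1.55-fold to 1.65-fold with 1 library left out. The share of counts in the top 20 genes moved from 19.7% to 17.5% when all transcripts of a symbol were summed. The difference between cell types gave 2 calls, 3 without a filter, 3 in DESeq2 and 1 in limma voom, and 0 to 2 with 1 library left out. The cause of these changes was not tested. The comparison with KSL cells gave 12082 calls and 12117 to 12197 with 1 library left out. No paired analysis was possible because the labels of the erythroblast libraries share no replicate numbers between the diets. Depth limits the comparison under 1 CPM, where none of 794 bounds was within 1.5-fold.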

Other observations

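Other gene groups had no call either. All 25 antioxidant genes and all 21 autophagy and mitochondrial clearance genes tested had a bound within 1.5-fold, as did all 10 genes of hemoglobin chaperones and proteolysis, against 77.4% of all genes tested. At 50 CPM or more, the level of 17, 12 and 9 of these genes, the share over all genes was 97.9%. It was 97.0% from 10 to 50 CPM, so these counts are near those of genes of like level. Cholesterol synthesis genes had 20 of 22 within that bound, and 12 of 21 above the level filter were highest in placebo 2. Glycolysis genes had 11 of 15 within that bound.

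Of 22 nuclear condensation and enucleation genes 21 had a bound within 1.5-fold. Of these 22 genes 19 were above 0 with a median of 0.04, which became 14 to 18 with 1 library left out (medians from 0.005 to 0.06) and 13 with the title number as a covariate. Of 16 p53 targets 15 had such a bound, as did 7 of 8 heme export and breakdown genes and 3 of 4 osteopontin receptor genes. TGF-beta signalling genes were below 0 in 11 of 13, with a median of -0.11, and in 8 of 13 with a median of -0.03 without oxymetholone 2, and 11 had a bound within 1.5-fold. Integrated stress response genes had 12 of 16 within it, and 12 of 16 were highest in placebo 1. TNF and NF-kB response genes had 5 of 11 and immediate early genes 6 of 12 within it, with 6 of 9 above the level filter highest in placebo 1 in each list. The 4 Y-linked genes tested were all within 1.5-fold.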
